A study of Trichoderma reesei QM6a with 6 samples.

Results

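Hydrophobins are small secreted proteins of filamentous fungi whose conserved cysteines hold them in a compact fold with an exposed water-repellent patch. They gather at the border of water and air, coat hyphae and spores, and let hyphae leave a wet substrate. In Trichoderma reesei, a fungus known for its secreted cellulases, HFB1 is best known from mycelium growing on glucose-containing medium and HFB2 from starved and sporulating cultures, while less is known of HFB3. The genes described here are hfb1 (TRIREDRAFT_73173), hfb2 (TRIREDRAFT_119989) and hfb3 (TRIREDRAFT_123967). They were taken by locus tag, 3 of the 9113 genes in the deposited series table, and the reference gene table gives each of the 3 tags the same symbol.

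Δace1 is a strain in which ace1 was deleted in the background QM6a, and it was set against QM6a itself, which carries the wild-type gene. The product of ace1 is a zinc finger regulator that is known to repress cellulase and xylanase genes. Both strains were grown in shaken flasks for 24 h on 1% D-glucose, then washed and kept for 3 h on 1% D-mannitol, a sugar alcohol, before RNA was taken. Each strain gave 3 poly(A) libraries. How many transformants the deletion strain stands for is not given in the sources used here, nor is it said that replicates were separate cultures, so p-values measure the spread between these libraries.

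The ace1 transcript was at 6 to 14 estimated counts in Δace1, against 7765 to 8432 in QM6a, so each library carried the level of its label. Summed over all transcripts, a Δace1 library had 5482552 to 6424125 estimated counts and a QM6a library 6072118 to 6938203. The strains differed widely: 6274 of 7769 tested genes, 80.8%, passed a Benjamini-Hochberg adjusted p of 0.05 in edgeR's quasi-likelihood test with TMM scaling, 41.2% higher and 39.5% lower. A call alone is therefore close to the background of this comparison. The direction of a small change depended on how the libraries were put on one scale, since all genes had a median log2 change of 0.03 under TMM, 0.53 under scaling by library totals and 0.76 on log2(TPM + 1). As these are bulk samples, fewer cells of a kind and less RNA per cell cannot be told apart.

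The hydrophobin genes parted ways in Δace1. The hfb1 transcript was at or near 0 counts in both strains. The hfb2 transcript was among the more abundant of the fungus in both strains and was lower in Δace1 with TMM scaling. The hfb3 transcript was less abundant than hfb2 and was higher in Δace1. Of the 2 members with enough counts for the test, 1 rose and 1 fell with TMM scaling, and the fall of hfb2 depended on the scaling. Among all tested genes 41.2% were called higher and 39.5% lower, so 1 call each way is near the background.

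The gene hfb1 encodes the hydrophobin best known from vegetative mycelium. It had 1, 0 and 0 estimated counts in Δace1 replicates 1, 2 and 3, and 0, 2 and 0 in QM6a replicates 1, 2 and 3. It was therefore at 0 in 4 of the 6 libraries, with 3 counts in all. TPM is the kallisto unit that divides counts by effective length and scales the results to the same sum in every library. The libraries with counts had 0.617 TPM (Δace1 replicate 1) and 1.07 TPM (QM6a replicate 2). A count of 0 allows up to 3 counts, which for a transcript of this length would be 1.85 to 2.09 TPM in the Δace1 libraries, against 1.39 to 1.599 TPM in the QM6a libraries, counting error only. No library exceeded that limit, so a difference between the strains was not detectable at this depth and no fold is given. The gene did not pass the filter on low counts. Fitted without that filter it was not called either, with an adjusted p of 0.543 in edgeR and 0.678 in DESeq2.

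The gene hfb2 encodes the hydrophobin known from starvation and sporulation. It had 522, 756 and 625 estimated counts in Δace1 replicates 1, 2 and 3, and 721, 751 and 748 in QM6a replicates 1, 2 and 3. After the authors' scaling by size factors these were 414.9, 659.8 and 592.5 normalized counts in Δace1, against 785.8, 897.1 and 873.6 in QM6a. Every Δace1 library lay below every QM6a library on that scale, and Δace1 replicate 1 lay lowest of all 6. Normalized counts of the strains were likewise apart for 82.3% of the tested genes.

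The mean of hfb2 was 556 ± 127 normalized counts in Δace1 and 852 ± 58.7 in QM6a (SD, n = 3 each). With TMM scaling hfb2 fell by 0.60 on the log2 scale, with a standard error of 0.17 and a 95% interval of -0.9997 to -0.20 (edgeR's quasi-likelihood test, adjusted p = 0.0132). The fall was 0.660-fold, and 27.6% of the tested genes had a still lower log2 change. Scaled by library totals, its log2 change was -0.10 and not called (edgeR, adjusted p = 0.620). On log2(TPM + 1) it was above 0, at 0.15, and not called (limma, adjusted p = 0.382).

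In TPM, which can be compared between genes, hfb2 was at 376, 594.6 and 508 in Δace1 replicates 1, 2 and 3, against 389, 467 and 457 in QM6a. On this scale the strains overlapped, with Δace1 holding both the highest and the lowest library. The mean level was 493 ± 110 TPM in Δace1 and 438 ± 42.5 TPM in QM6a (SD, n = 3 each). Among the 8526 genes with a TPM value, hfb2 ranked 443, 293 and 321 from the top in Δace1 replicates 1, 2 and 3, against 323, 292 and 293 in QM6a. Its rank in Δace1 replicates 2 and 3 thus lay within the range in QM6a, and replicate 1 lay outside it.

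The Δace1 libraries disagreed on hfb2 more than they did on most genes. The highest Δace1 library had 1.59 times the normalized count of the lowest, against 1.142 times in QM6a. The standard deviation of log2(normalized count + 1) was 0.35 in Δace1 and 0.10 in QM6a. It was larger than that of 96.1% of the 7769 tested genes in Δace1 and of 45.4% in QM6a. Without Δace1 replicate 1 the fall was 0.42 on the log2 scale and was called (adjusted p = 0.000194), and without QM6a replicate 3 the log2 change of -0.58 just missed the threshold (adjusted p = 0.0505, both edgeR).

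The gene hfb3 encodes the least studied of these hydrophobins. It had 309, 342 and 246 estimated counts in Δace1 replicates 1, 2 and 3, and 167, 182 and 154 in QM6a replicates 1, 2 and 3. Normalized counts were 245.6, 298.5 and 233.2 in Δace1, against 182, 217 and 179.9 in QM6a. Every Δace1 library lay above every QM6a library on each scale, already in the unscaled counts. Such separation was common, as normalized counts of the strains were apart for 82.3% of the tested genes. The share was not counted for unscaled counts or TPM.

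The mean of hfb3 was 259 ± 34.7 normalized counts in Δace1 and 193 ± 21.1 in QM6a (SD, n = 3 each). It rose by 0.45 on the log2 scale, with a standard error of 0.12 and a 95% interval of 0.20 to 0.69 (edgeR's quasi-likelihood test, adjusted p = 0.00201). This was 1.36-fold, and 64.1% of the tested genes had a lower log2 change, so the rise was within the common run of this comparison. With library totals the log2 change was 0.95 (edgeR, adjusted p = 4.57e-07), and on log2(TPM + 1) it was 1.20 (limma, adjusted p = 1.27e-05). The size of the rise therefore depended on the scaling, while its direction and its call did not.

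In TPM, hfb3 was at 178.9, 216 and 160.7 in Δace1 replicates 1, 2 and 3, against 72.5, 91.04 and 75.6 in QM6a. The mean level was 185 ± 28.3 TPM in Δace1 and 79.7 ± 9.94 TPM in QM6a (SD, n = 3 each). Its rank among 8526 genes was 943, 763 and 986 in Δace1 replicates 1, 2 and 3, against 1465, 1244 and 1458 in QM6a. A rank within a library does not depend on the factor by which that library is scaled, and the ranks of hfb3 did not overlap between the strains. The share of all genes with ranks apart was not counted, so this separation is given as a description only. Replicate 2 was highest in both strains.

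**Figure D1:**
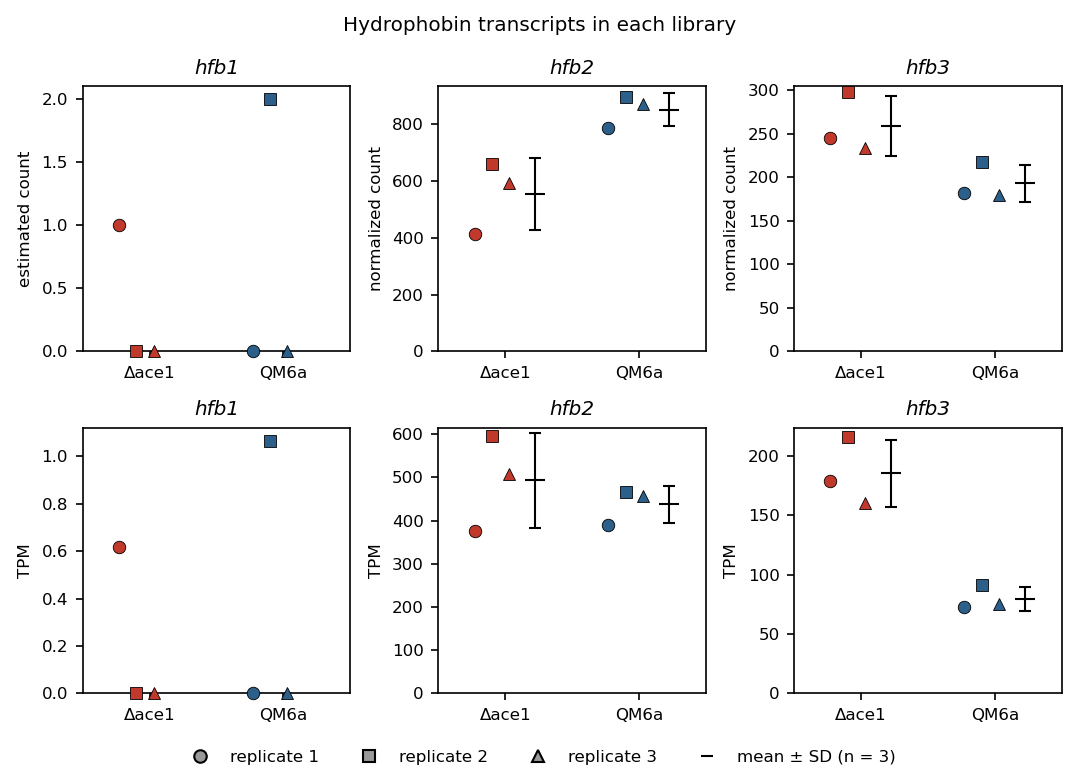
Levels of hfb1, hfb2 and hfb3 in each library, as estimated counts (hfb1) or normalized counts (hfb2 and hfb3) in the upper row and as TPM in the lower row. Points are libraries, with Δace1 in red left of QM6a in blue, and bars are mean ± SD of 3 libraries; hfb1 had at most 2 counts in a library, hfb2 was apart in normalized counts and overlapped in TPM, and hfb3 was higher in Δace1 on both scales.

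Levels between the genes were compared per length. Their coding lengths were 294 bases for hfb1, 261 for hfb2 and 309 for hfb3. The effective length was shorter by 64.1 to 64.2 bases in every library, so the effective length of each member was nearly the same in both strains. The order of TPM was hfb2, then hfb3, then hfb1 in all 6 libraries, and the ranges of the 3 genes did not overlap in either strain. Where hfb1 had no count, hfb2 was set against the limit of 3 counts taken for hfb1. It was 294-fold and 243-fold that limit in Δace1 replicates 2 and 3. In QM6a replicates 1 and 3 it was 281-fold and 291-fold. The corresponding values for hfb3 were 107-fold and 76.98-fold in those Δace1 libraries and 52.3-fold and 48.2-fold in those QM6a libraries.

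A scaling factor shifts the log2 change of every gene alike, so the difference from the median of all genes is fixed by construction over TMM, RLE, upper-quartile scaling and library totals. It was -0.63 for hfb2 and 0.41 for hfb3. On log2(TPM + 1), another unit, it was -0.61 for hfb2 and 0.45 for hfb3. The median of all genes was 0.19 with upper-quartile scaling, where hfb2 was still called lower with a log2 change of -0.44 (edgeR, adjusted p = 0.0486) and hfb3 higher with 0.60 (edgeR, adjusted p = 0.000139).

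**Figure D2:**
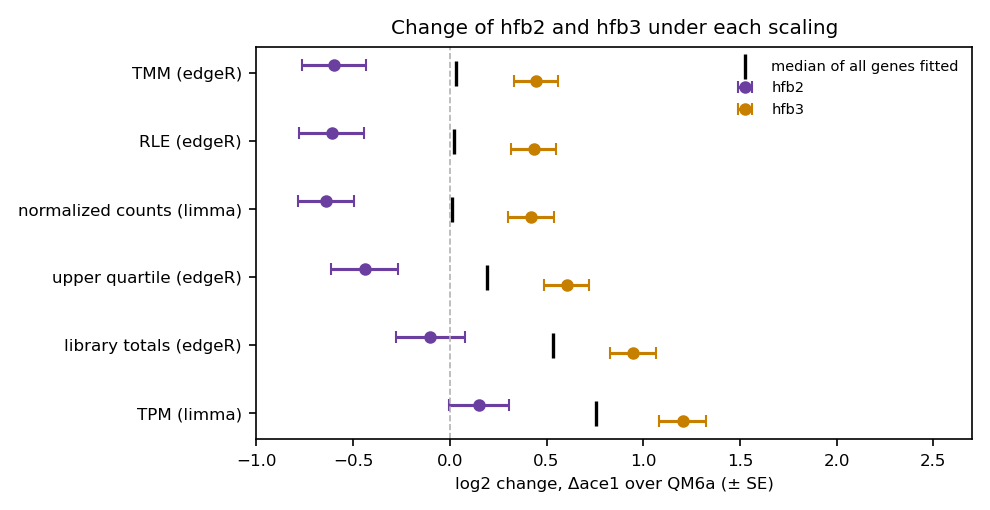
Log2 change of hfb2 (purple) and hfb3 (orange) in Δace1 over QM6a under 6 scalings or units, with standard errors, and the median of all genes fitted as a black tick. The hfb2 change lies below the median and the hfb3 change above it in each row, and the median moves from 0.03 with TMM to 0.76 on log2(TPM + 1). The distance from the median is fixed by construction over TMM, RLE, upper-quartile scaling and library totals. All rows come from the same libraries and are not separate evidence.

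The balance between hfb3 and hfb2 within a library needs no scaling between libraries. Per kilobase of coding length, the ratio of hfb3 to hfb2 counts was 0.50, 0.382 and 0.332 in Δace1 replicates 1, 2 and 3, against 0.196, 0.205 and 0.174 in QM6a. Every Δace1 library lay above every QM6a library. How often the ratio of 2 genes parts the strains was not counted, while normalized counts of single genes were apart for 82.3% of those tested. The ratio joins the changes of hfb2 and hfb3 already given and is not separate evidence. The mean ratio was 0.405 ± 0.0861 in Δace1 and 0.191 ± 0.0158 in QM6a (SD, n = 3 each). The mean log2 ratio was higher by 1.06 in Δace1, which is 2.09-fold. An exact two-sided permutation test over the 6 libraries gave p = 0.10, the smallest value that 3 against 3 libraries allow, so this design cannot bring it below 0.05. It was the only one of the 3 pairs of members with a ratio in every library, since hfb1 had no count in 4 of them. The rise of the ratio was largest in Δace1 replicate 1, where hfb2 was lowest, and it was 0.90 on the log2 scale without that library.

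**Figure D3:**
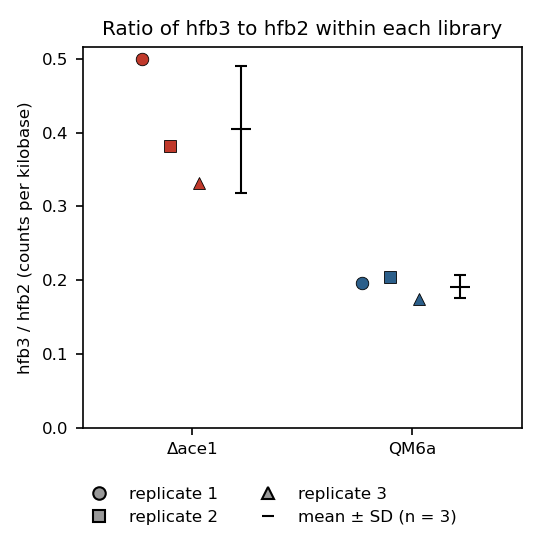
Ratio of hfb3 to hfb2 within each library, from counts per kilobase of coding length, with points for libraries and bars for mean ± SD of 3 libraries. The Δace1 libraries lie between 0.332 and 0.50 and the QM6a libraries between 0.174 and 0.205.

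The TMM-scaled profiles over the 6 libraries were compared with those of 6289 other tested genes whose TPM averaged 10 or more. Likeness was the root mean square difference of log2 CPM, each gene centred on its own mean. Closest to hfb2 were TRIREDRAFT_70365, TRIREDRAFT_107464 and TRIREDRAFT_34079, each at 0.09. Closest to hfb3 were TRIREDRAFT_68927 at 0.05, TRIREDRAFT_121189 at 0.07 and TRIREDRAFT_106287 at 0.08. None of these genes has a symbol in the reference table. They were picked for their likeness over the same 6 libraries, so their direction and size follow from that choice and are given as a description. With TMM scaling the genes near hfb2 fell as well, by 0.75 for TRIREDRAFT_70365, 0.51 for TRIREDRAFT_107464 and 0.55 for TRIREDRAFT_34079 on the log2 scale, and like hfb2 they were above 0 and not called on log2(TPM + 1); with library totals, TRIREDRAFT_107464 and TRIREDRAFT_34079 were not called either. Genes near hfb3 rose, by 0.48 for TRIREDRAFT_68927, 0.37 for TRIREDRAFT_121189 and 0.59 for TRIREDRAFT_106287. The call of TRIREDRAFT_121189 was lost with DESeq2 (adjusted p = 0.0744) and, in edgeR, without Δace1 replicate 2 (adjusted p = 0.0899) or QM6a replicate 3 (adjusted p = 0.0650).

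Light and development genes, some of which are known to act on sporulation, were set beside hfb2, whose product coats conidia. The list held 8 locus tags, of which 5 carry a symbol in the reference table. Of these 5 genes 3 rose, 1 fell and 1 was not called, against 41.2% higher and 39.5% lower among all tested genes, so the share called was near the background of 80.8%. Their median log2 change was 0.50, beside 0.03 for all tested genes. The photoreceptor gene env1 averaged 825 ± 46.6 normalized counts in Δace1 and 205 ± 61.3 in QM6a (SD, n = 3 each), a log2 change of 2.03. The blue light regulator gene blr2 rose by 0.50, and its partner gene blr1 was at 0.12 and not called (edgeR, adjusted p = 0.104), but it was called with library totals, upper-quartile scaling, the stricter count filter and on log2(TPM + 1). The photolyase gene phr1 rose by 0.81 on the log2 scale.

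The gene ste12, which encodes a transcription factor at the end of a MAP kinase pathway, fell by 1.19 on the log2 scale.

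The other 3 tags of that list, and the single tag of a list of further surface proteins, have no symbol in the reference table and are given by tag alone. Their place on these lists does not come from that table and was not checked. TRIREDRAFT_122284 rose by 1.27 on the log2 scale. TRIREDRAFT_41617 fell by 1.28, and its log2 change of -0.54 on log2(TPM + 1) was not called (limma, adjusted p = 0.0532). It had 42.1, 89.9 and 86.3 normalized counts in Δace1 replicates 1, 2 and 3, against 169.0, 183.9 and 178.7 in QM6a. Both TRIREDRAFT_41617 and hfb2 were thus lowest in Δace1 replicate 1. The share of all genes lowest in that library was not counted, and a link between these genes was not tested. TRIREDRAFT_82208 was counted 7, 8 and 12 times in Δace1 replicates 1, 2 and 3, and 4, 8 and 5 times in QM6a, and was not tested. TRIREDRAFT_123955 was counted 3, 1 and 5 times in Δace1 and 0, 2 and 1 times in QM6a, and was not tested either. The libraries were labelled as mycelium, and the part of conidia in the hfb2 level was not tested.

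**Figure D4:**
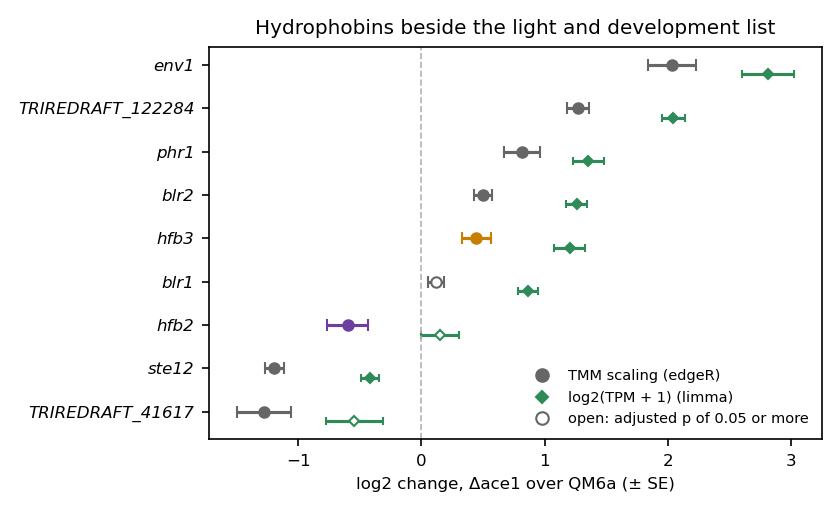
Log2 change in Δace1 over QM6a with standard errors for hfb2, hfb3 and the 7 tested tags of the light and development list, from edgeR with TMM scaling (circles) and from limma on log2(TPM + 1) (green diamonds). Open symbols did not pass an adjusted p of 0.05; each gene shown lies further right on TPM, and hfb2 is the only one shown whose direction turns, from -0.60 to 0.15.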

How the data were processed

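RNA sequencing of 3 Δace1 and 3 QM6a libraries was used. FastQC 0.11.5, kallisto 0.43.1 and DESeq2 1.14.1 are named by the submitters' processing notes. Which transcript set and build they used is not given in the sources used here. Each sample table holds estimated counts, TPM and lengths per transcript, per the file headers, and 99.1% of lengths are multiples of 3, so they are coding lengths. The series table deposited by the authors holds normalized counts per locus tag (a signal). Those values equal rounded estimated counts divided by 1 size factor per library and by relative effective length. Multiplied by the factor alone, 92.4% to 96.1% of the values were whole within 0.05, and edgeR called 6274 genes on these recovered reads.

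Transcripts and locus tags were matched through their counts over the 6 libraries: 8526 of 9113 genes matched 1 transcript, each hydrophobin among them, and 587 with at most 11 counts in all shared theirs. Symbols came from a RefSeq gene table of assembly v2.0, which held 9109 of the tags and a symbol for 234.

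Estimated counts were rounded and tested with edgeR 4.0.16 (TMM, filterByExpr, robust quasi-likelihood test, two-sided, Benjamini-Hochberg over 7769 genes) in R 4.3.3. Standard errors are the log2 change over the root of F. Alternatives used DESeq2 1.42.0 and limma 3.58.1, other scalings, filters and pseudocounts, a replicate block and each library left out. In simulated data of 7769 genes 97.0% of the 2-fold changes and 100% of the 4-fold changes were called by edgeR, and 14 calls were false. That simulation changed few genes, balanced up and down, with the same spread for every gene and no smaller folds. Its rates therefore do not carry over to the smaller changes of hfb2 and hfb3, in a comparison with 80.8% of genes called. Replicates differed by more than sampling noise (chi-square divided by its degrees of freedom, 2.96 to 28.5). Over all genes Δace1 replicate 3 stood apart from replicates 1 and 2 (28.5 and 21.3), which were at 4.19 from each other. QM6a replicate 1 stood apart from replicates 2 and 3 (10.3 and 12.5), which were at 2.96.

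The members and lists were chosen with earlier results of these data known. Named genes are ace1, the 3 members, the listed surface and development tags (4 of these without a symbol, so unnamed here), and the 3 genes of most like profile per tested member; genes beside the members on the chromosome were added after the values were seen. Protein and promoter sequences were not used here, so a planned search for hydrophobin cysteine spacing and for an Ace1 motif was not run, and hydrophobins were those with a symbol starting with hfb.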

Additional observations from a re-analysis of the deposited data

How the results depend on the processing

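The fall of hfb2 was lost with library totals (-0.10 on the log2 scale) and without QM6a replicate 3, and the change was above 0 on log2(TPM + 1) and log2(TPM + 0.1) (0.15 on each, not called). Leaving out single libraries gave log2 changes of -0.74 to -0.42 for hfb2 and 0.33 to 0.54 for hfb3. In edgeR hfb2 was called only narrowly without Δace1 replicate 3 (adjusted p = 0.0391), QM6a replicate 1 (0.0463) or QM6a replicate 2 (0.0474). It was called more clearly without Δace1 replicate 1 (adjusted p = 0.000194) or replicate 2 (0.000357). The call of hfb3 kept its direction and side of the threshold under each alternative run, with 0.40 to 1.21 over scalings, filters, tools and single libraries other than Δace1 replicate 2 (0.33). The log2 ratio of hfb3 to hfb2 was 0.90 to 1.19 without single libraries; its p cannot pass the threshold in this design. Calls over all genes ranged from 5709 of 6917 genes with the stricter count filter to 6786 of 7853 on log2(TPM + 1). DESeq2 called 6069 of 9113, so these counts also reflect how many genes each filter kept. Among the calls, the share of higher ones was 51.0% with TMM, 58.0% with upper-quartile scaling, 71.8% with library totals and 80.5% on log2(TPM + 1). The labels do not say that replicate numbers pair the libraries, and same-numbered libraries did not deviate together (correlations of -0.01, 0.03 and -0.05 for numbers 1, 2 and 3). With a replicate block hfb2 was at -0.62 and hfb3 at 0.44, both called, and 6223 genes were called in all. The hfb1 alternatives gave no value where a filter removed it, and at 3 counts in all depth limits any statement on hfb1.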

Other observations

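The 3 genes taken beside hfb2 in the order of the reference table did not share its fall with TMM scaling, a fall that depended on the scaling. The second gene before hfb2 was not among them. Of all tested genes, 41.2% were called higher. TRIREDRAFT_74559, the second gene after hfb2, averaged 95.4 ± 2.94 TMM-scaled CPM in Δace1 and 30.1 ± 3.83 in QM6a (SD, n = 3 each), a log2 change of 1.66. TRIREDRAFT_56149, just before hfb2, rose by 0.26 on the log2 scale. TRIREDRAFT_119991, just after it, rose by 0.29, a call lost with DESeq2 (adjusted p = 0.0583) and, in edgeR, without Δace1 replicate 2 (adjusted p = 0.0582), QM6a replicate 1 (adjusted p = 0.0775) or QM6a replicate 2 (adjusted p = 0.0542). All 3 were above 0 under each scaling run.

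Genes beside hfb1 changed in both directions, and of all tested genes 41.2% were called higher and 39.5% lower. TRIREDRAFT_59359, just after hfb1, averaged 61.0 ± 4.53 CPM in Δace1 and 109 ± 1.87 in QM6a (SD, n = 3 each), a log2 change of -0.84 that was not called on log2(TPM + 1). TRIREDRAFT_47020, the second gene after hfb1, fell by 1.95 on the log2 scale, also called lower on log2(TPM + 1). TRIREDRAFT_76862, the second gene before hfb1, fell by 0.91 and was not called on log2(TPM + 1). TRIREDRAFT_106089, just before hfb1, was scarce, counted 30, 17 and 22 times in Δace1, against 10, 13 and 4 times in QM6a. It rose by 0.96 on the log2 scale, its normalized counts overlapped between the strains, and its call was lost with DESeq2 (adjusted p = 0.0836) and, in edgeR, without Δace1 replicate 1 (adjusted p = 0.0883) or QM6a replicate 3 (adjusted p = 0.121).

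Genes beside hfb3 likewise differed, against the same background of 41.2% higher and 39.5% lower. TRIREDRAFT_69489, just after hfb3, was at 0.11 on the log2 scale and not called (edgeR, adjusted p = 0.179), but it was called on TPM, with library totals and with upper-quartile scaling. TRIREDRAFT_111783, the second gene after it, fell by 0.83 and was not called on log2(TPM + 1). TRIREDRAFT_111778, just before hfb3, was counted 24, 23 and 30 times in Δace1, against 10, 15 and 10 times in QM6a, and rose by 0.75. Its call was lost with DESeq2 (adjusted p = 0.128) and, in edgeR, without Δace1 replicate 3 (adjusted p = 0.123), QM6a replicate 1 (adjusted p = 0.108) or QM6a replicate 3 (adjusted p = 0.0911). TRIREDRAFT_72549, the second gene before hfb3, was counted 7, 11 and 6 times in Δace1, against 4, 14 and 10 times in QM6a. It did not pass the filter on low counts.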
